A study of Mus musculus with 6 samples.

Results

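The genes described here are the ATP-binding cassette (ABC) transporters of subfamilies Abca to Abcg and the organic anion carriers of the Slco family. They were chosen by symbol alone: Abc followed by a letter a to g and digits, or Slco followed by digits. The rule found 62 genes among 19057 named genes on an Illumina mouse bead array, each represented by its brightest probe (highest mean of the 6 arrays). The arrays held RNA of macrophages and of 2 kinds of conventional dendritic cell (cDC), those with and those without CD8, from the spleen of C57/B6 mice, 2 arrays for each of the 3 populations. No agent or genetic change is named for any of the groups, and the sources used here do not give the age, the sex, the isolation of the cells or the number of animals behind an array. Whether the replicates came from separate animals or sorts is not given either, so a p-value speaks of the spread among these arrays alone. In addition, a difference in bulk RNA cannot tell more RNA per cell from more cells of the type that carries it.

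ABC transporters use ATP to move lipids, conjugates, peptides, haem precursors or drugs across membranes, mostly outward or into organelles. Slco proteins, also called OATPs, carry organic anions such as hormone conjugates and prostaglandins into cells without using ATP. In macrophages the family is best known for Abca1 and Abcg1, which pass cholesterol from the cell to apolipoproteins and lipoprotein particles and are switched on by the sterol-sensing nuclear receptors LXR. Spleen macrophages clear old red cells, and so handle haem, iron and membrane lipid, whereas cDC take up antigen and present its peptides to T cells.

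The promoters of 4 genes that were higher in macrophages than in cDC are shown first as reference sequence from RefSeq (GRCm38.p6). Each is the stretch of 250 bases before the listed start of the gene, read 5′ to 3′ on the gene's strand. Capitals mark the motifs searched for on both strands: the E-box CACGTG, the GC box GGGCGG, the TATA box TATAAA, the CCAAT box CCAAT and a core of the LXR repeat, GGTTA and GGTCA with any 5 bases between them. That core was written to cover the repeat known from the Abca1 promoter, so its match in Abca1 is given by how it was chosen.
Abcb4: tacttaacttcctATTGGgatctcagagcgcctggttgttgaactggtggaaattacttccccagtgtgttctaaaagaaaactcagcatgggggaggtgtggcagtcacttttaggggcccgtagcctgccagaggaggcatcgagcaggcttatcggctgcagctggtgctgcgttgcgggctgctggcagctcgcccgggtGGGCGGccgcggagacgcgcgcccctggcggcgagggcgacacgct
Abcc5: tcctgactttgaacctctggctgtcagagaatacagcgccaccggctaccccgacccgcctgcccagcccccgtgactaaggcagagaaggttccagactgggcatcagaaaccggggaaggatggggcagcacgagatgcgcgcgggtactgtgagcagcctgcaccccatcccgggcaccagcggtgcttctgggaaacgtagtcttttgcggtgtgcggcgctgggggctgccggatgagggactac
Abca1: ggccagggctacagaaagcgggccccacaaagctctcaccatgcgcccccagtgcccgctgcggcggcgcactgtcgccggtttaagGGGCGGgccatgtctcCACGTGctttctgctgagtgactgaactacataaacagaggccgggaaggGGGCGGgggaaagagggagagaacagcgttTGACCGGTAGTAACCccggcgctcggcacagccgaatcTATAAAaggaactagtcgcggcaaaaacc
Slco2a1: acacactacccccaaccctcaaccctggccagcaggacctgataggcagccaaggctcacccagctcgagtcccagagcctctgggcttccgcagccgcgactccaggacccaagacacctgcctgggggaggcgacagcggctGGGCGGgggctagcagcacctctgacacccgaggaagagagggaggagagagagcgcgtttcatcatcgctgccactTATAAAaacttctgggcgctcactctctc
The stretches lie at chr5:8893471-8893720 (plus strand) for Abcb4, chr16:20426395-20426644 (minus strand) for Abcc5, chr4:53159896-53160145 (minus strand) for Abca1 and chr9:103008237-103008486 (plus strand) for Slco2a1. Their GC content was 61.6%, 64.0%, 61.6% and 63.2%, in that order, against a median of 52.4% over the 32851 promoters of the table. Abca1 held an E-box from 147 to 142 bases before the start, GC boxes ending 158 and 92 bases before it, the reversed LXR core from 67 to 53 bases before it and a TATA box from 29 to 24 bases before it. Slco2a1 had a TATA box at the same distance and a GC box. Abcb4 had a GC box from 46 to 41 bases before the start and a reversed CCAAT box, and Abcc5 held none of these motifs in the window. Promoters were listed for 50 of the 62 genes. These genes had 61 listed promoters. Of the 61, 23 held a GC box, which 32.7% of all promoters did, 18 a CCAAT box (33.8% of all), 10 a TATA box (12.4% of all), 5 an E-box (6.02% of all) and 1 the LXR core (0.0457% of all). The consensus LXR repeat, AGGTCA and AGGTCA with any 4 bases between, was in 0.0152% of all promoters and in none of those listed for the 62 genes.

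Values are log2 signals, and a level of 5.25 log2, the 99th percentile over probes of odorant, vomeronasal and taste receptor genes and of hair keratin-associated protein genes, was taken as background. Each array had 15802 to 15827 probes above it, close numbers that follow from the nearly equal distributions of the 6 columns. The populations carried their labelled markers: of 12 macrophage markers measured all 12 were higher in macrophages than in the cDC mean, and 6 of 8 cDC markers were lower in macrophages. Between the cDC, 3 of 10 markers of CD8+ cDC were higher and 4 of 8 markers of CD8- cDC were lower in CD8+ cells, while the probe of Cd8a itself lay above background on 1 array, a CD8+ cDC array. The macrophage markers also differed within the cDC. Their median was 13.24 and 13.39 log2 on macrophage arrays 1 and 2, 5.98 and 8.64 log2 on CD8+ cDC arrays 1 and 2, and 8.22 and 6.04 log2 on CD8- cDC arrays 1 and 2. Of the 12 markers, 11 read higher on CD8+ cDC array 2 than on array 1, and 11 read higher on CD8- cDC array 1 than on array 2. None was at background on all arrays, and their summed linear signal ran from 115250 to 124370 in macrophages, from 2304 to 7467 in CD8+ cDC and from 6531 to 10359 in CD8- cDC. Of 8 erythroid markers, Klf1 and Epor (2) were higher in macrophages, with summed signals of 20536 to 25808 in macrophages, 9657 to 15239 in CD8+ cDC and 8261 to 16008 in CD8- cDC. Endothelial and stromal markers were higher for 2 of 9 (Pecam1 and Stab2), with sums of 4186 to 5674 in macrophages, 638.2 to 834.9 in CD8+ cDC and 654.5 to 724.9 in CD8- cDC. Of 7 platelet and megakaryocyte markers, 2 were higher (Pf4 and Clec1b), with sums of 587.9 to 718.6 in macrophages, 191.4 to 194.3 in CD8+ cDC and 184.1 to 189.6 in CD8- cDC. Of 8 markers of eosinophils, basophils and mast cells, 2 were higher (Ccr3 and Prg3), with sums of 1717 to 1856 in macrophages, 265.9 to 293.4 in CD8+ cDC and 273.9 to 287.7 in CD8- cDC, while 5 (Epx, Fcer1a, Cpa3, Mcpt8 and Siglecf) were at background on all arrays. Of 6 B cell markers 1, Fcer2a, was higher, with sums of 1679 to 2364 in macrophages, 1516 to 3776 in CD8+ cDC and 1167 to 1903 in CD8- cDC. No marker of T and NK cells or of neutrophils was called higher in macrophages, but their sums differed between replicates. For T and NK cells the sums on arrays 1 and 2 were 837.9 and 176.4 in macrophages, 522.8 and 246.3 in CD8+ cDC and 566.7 and 285.9 in CD8- cDC. For neutrophils they were 2092 and 336.9, 489.8 and 225.6, and 455.7 and 174.4, in that order. Of 6 markers of plasmacytoid dendritic cells, 2 were lower in macrophages than in the cDC mean. The part of such cells in the values of the 62 genes was not tested.

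The family was divided between genes read above background and genes at it, as were all named genes. Of the 19057 named genes, 9664 lay above it on at least 2 arrays, a looser rule than the one used next. On both arrays of at least 1 population, 28 of the 62 genes lay above background, 32 were at background on all 6 arrays and 2, Abca15 and Abcc1, exceeded it on single arrays. Above background on both arrays were 25 genes in macrophages, 21 genes in CD8+ cDC and 20 genes in CD8- cDC. In the test of limma over all probes, with a call at an adjusted p under 0.05, 13 of the 62 genes (21.0%) were higher in macrophages than in the cDC mean, where 8.22% of all named genes were. Lower in macrophages were 4 of the 62 genes (6.45%), where 7.21% of all named genes were; in either direction it was 17, where 15.4% of all named genes were called. The median difference over the 62 genes was 0.05 log2, and over all named genes -0.002 log2. Macrophage and cDC arrays did not overlap for any of the 17 called genes, so leaving out arrays could not change their sign. Each fit that left out 1 array called fewer of all named genes than the fit of all 6 arrays. Every one of the 17 called genes kept its sign in each fit that left out 1 array, but the call itself held in all 6 such fits for 7 of the 13 higher genes (Abca1, Abcb4, Abcc5, Abcd2, Abcd3, Abcg1 and Slco2a1) and for 1 of the 4 lower genes (Slco3a1). A fit without CD8+ cDC array 2 and CD8- cDC array 1, the arrays with more macrophage marker signal, called no gene of the whole table, and all 17 genes kept their sign in it. That fit had 1 residual degree of freedom, and 18 of the 62 genes (29.0%) had an unadjusted p under 0.05 in it, where 23.6% of all named genes had.

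**Figure D1:**
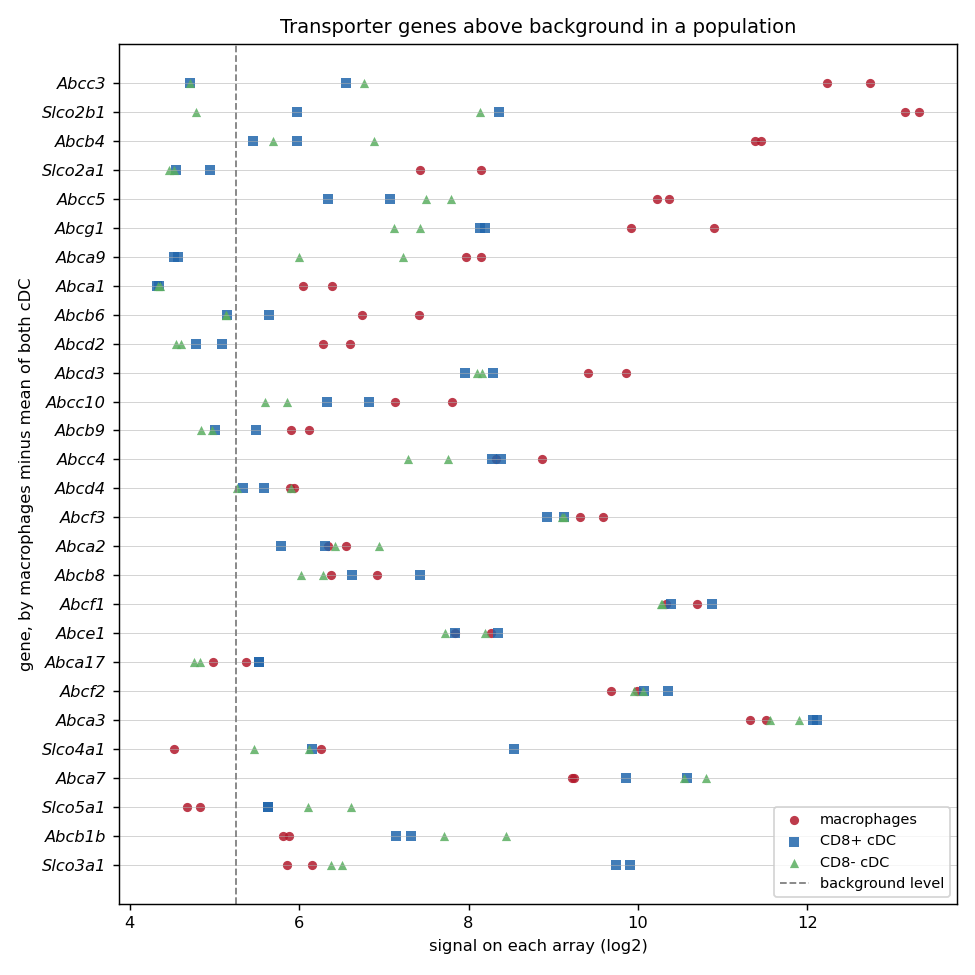
Signal (log2, horizontal axis) of the 28 transporter genes above background on both arrays of a population, 1 row per gene, ordered by the difference between macrophages and the cDC mean. Each point is 1 array (red circles macrophages, blue squares CD8+ cDC, green triangles CD8- cDC) and the dashed line is the background level of 5.25 log2; the macrophage points of the upper rows stand clear of the cDC points, and Slco3a1 in the bottom row stands high on the CD8+ cDC arrays.

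The 2 largest differences were in an exporter and a carrier of organic anions. Abcc3 (MRP3), which exports glucuronides and other organic anion conjugates, read 12.23 and 12.74 log2 on the macrophage arrays, 4.71 and 6.55 log2 on the CD8+ cDC arrays and 6.76 and 4.71 log2 on the CD8- cDC arrays, replicate 1 before replicate 2 here and below. Both macrophage arrays lay far above all cDC arrays, and in each cDC population 1 array was at background. With arrays at background counted at that level, Abcc3 was at least 92.2-fold higher in macrophages than in the cDC mean (log2 difference 6.80, SE 0.78, adjusted p = 0.00957). It was at least 95.6-fold higher than in CD8+ cDC (adjusted p = 0.0168) and at least 88.9-fold higher than in CD8- cDC (adjusted p = 0.0166). These folds rest on single cDC arrays. Without CD8+ cDC replicate 1 the minimum against CD8+ cDC was 60.9-fold, and without replicate 2 it was 149.9-fold; against CD8- cDC it was 52.7-fold without replicate 2 and 149.9-fold without replicate 1. The call against both cDC was lost without macrophage replicate 2 (adjusted p = 0.0682). Both pairwise calls were lost without either macrophage array (adjusted p from 0.0566 to 0.0879), and also without CD8+ cDC replicate 1 (0.0772) or CD8- cDC replicate 2 (0.0696).

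Slco2b1 (OATP2B1), which takes up sulphated steroids among other anions, read 13.32 and 13.16 log2 in macrophages, 5.97 and 8.36 log2 in CD8+ cDC and 8.13 and 4.79 log2 in CD8- cDC. It was at least 79.3-fold higher in macrophages than in the cDC mean (log2 difference 6.43, SE 1.14, adjusted p = 0.0312, and 0.0494 with the replicate number as a block). Against CD8- cDC it was at least 93.6-fold higher (adjusted p = 0.0452, lost with the block at 0.0685), and against CD8+ cDC the difference of 6.07 log2 was not called (adjusted p = 0.0642). The groups did not overlap in any of these comparisons, and the cDC arrays of 1 population lay up to 3.35 log2 apart. The call against both cDC was lost without either CD8+ cDC array (adjusted p = 0.0793 and 0.0549) or either macrophage array (0.126 and 0.148), and that against CD8- cDC in each of the 6 fits with 1 array left out (0.0503 to 0.164). The minimum against CD8- cDC was 34.5-fold without CD8- cDC replicate 2 and 253.7-fold without replicate 1. Each cDC array moved the minimum against both cDC by over 1.5 times, to 48.2-fold without CD8- cDC replicate 2, 52.4-fold without CD8+ cDC replicate 1, 120-fold without CD8+ cDC replicate 2 and 130.6-fold without CD8- cDC replicate 1.

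These were the only 2 of the 62 genes that read over 1 log2 higher both on CD8+ cDC array 2 than on array 1 and on CD8- cDC array 1 than on array 2, the direction taken by the macrophage markers. The steps were 1.84 and 2.05 log2 for Abcc3 and 2.39 and 3.35 log2 for Slco2b1. The part of macrophage RNA in the cDC readings of both genes was not tested. Without the cDC arrays of higher marker signal, macrophages exceeded the cDC mean by at least 149.9-fold for Abcc3, with both cDC arrays left at background, and by at least 197.6-fold for Slco2b1, with the CD8- cDC array left at background; the adjusted p was 0.0527 and 0.0511 by limma, so neither was called. Smaller steps in the direction of the markers were read for Abcb4 (0.53 and 1.19 log2) and Abcc5 (0.72 and 0.31 log2). The part of macrophage RNA in their cDC readings was not tested either. Abca9 went the other way in CD8- cDC, with 5.99 and 7.22 log2, and Abcg1 did so in both cDC populations (-0.05 and -0.30 log2).

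**Figure D2:**
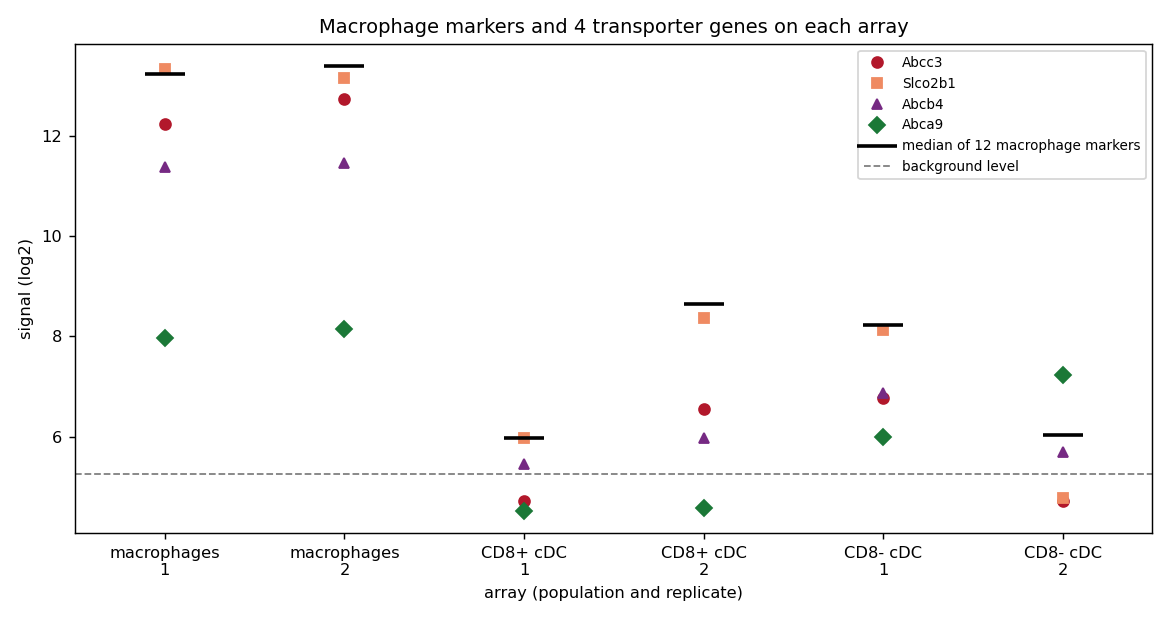
Signal (log2, vertical axis) on each of the 6 arrays for Abcc3, Slco2b1, Abcb4 and Abca9 and, as black bars, the median of 12 macrophage markers; the dashed line is the background level. Abcc3 and Slco2b1 are high on CD8+ cDC array 2 and CD8- cDC array 1, where the marker median is 8.64 and 8.22 log2, while Abca9 is highest among the cDC arrays on CD8- cDC array 2.

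Further exporters of the Abcc group differed less. Abcc5 (MRP5), an exporter of cyclic nucleotides, read 10.23 and 10.37 log2 in macrophages, 6.34 and 7.07 log2 in CD8+ cDC and 7.80 and 7.49 log2 in CD8- cDC. It was higher in macrophages by 3.12 log2 (SE 0.23, adjusted p = 0.00364) than in the cDC mean, by 3.59 log2 than in CD8+ cDC (adjusted p = 0.00461) and by 2.65 log2 than in CD8- cDC (adjusted p = 0.00828). The last call was lost without CD8- cDC replicate 2 (adjusted p = 0.0613). A second probe of Abcc5 was above background in macrophages alone and was also called higher there, by at least 1.06-fold (adjusted p = 0.00316).

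Abcc10 (MRP7), known for conferring resistance to taxanes in transfected cells, read 7.13 and 7.80 log2 in macrophages, 6.33 and 6.83 log2 in CD8+ cDC and 5.60 and 5.86 log2 in CD8- cDC. It was 1.31 log2 higher in macrophages than in the cDC mean (SE 0.25, adjusted p = 0.0387) and 1.73 log2 higher than in CD8- cDC (adjusted p = 0.0301). Against CD8+ cDC the difference was 0.89 log2, not called (adjusted p = 0.178, and 0.0343 with the replicate block). Of the 3 probes of Abcc10, 1 was above background on any array, so these values rest on that probe. Both calls were lost in 5 of 6 fits with 1 array left out, with adjusted p from 0.0531 to 0.146; they held without macrophage replicate 1. Abcc4 (MRP4), an exporter of cyclic nucleotides and prostaglandins, had 8.32 and 8.86 log2 in macrophages, 8.38 and 8.27 log2 in CD8+ cDC and 7.29 and 7.75 log2 in CD8- cDC. Its macrophage and CD8+ cDC readings overlapped, and the difference of 1.07 log2 between macrophages and CD8- cDC was not called (adjusted p = 0.0679, and 0.0493 with the replicate block). Abcc1, the broad conjugate exporter MRP1, lay at or next to background throughout, from 4.64 to 5.47 log2.

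Slco2a1, the prostaglandin transporter, which takes prostaglandins into cells for breakdown, read 7.43 and 8.15 log2 in macrophages, 4.55 and 4.95 log2 in CD8+ cDC and 4.46 and 4.52 log2 in CD8- cDC. All 4 cDC readings were at background, so the gene was at least 5.81-fold higher in macrophages than in the cDC mean (adjusted p = 0.00385). It was called higher against each cDC population (adjusted p = 0.00741 for CD8+ and 0.00563 for CD8- cDC); the first of these calls was lost without CD8+ cDC replicate 1 (adjusted p = 0.0503). Of its 4 probes, 3 were above background and all 3 were called higher in macrophages, with the cDC arrays at background. The other two probes were higher by at least 1.66-fold (adjusted p = 0.0451, lost with the replicate block at 0.0514) and at least 1.22-fold (adjusted p = 0.00903). Slco2a1 is also known from endothelium. Of the 9 endothelial and stromal markers, 5 (Kdr, Tek, Col1a1, Col3a1 and Lyve1) were at background on all arrays, Cdh5 was not called, and Pecam1 and Stab2 were 2.06 and 5.52 log2 higher in macrophages; the part of such cells in the reading of Slco2a1 was not tested.

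Genes of the conjugation systems that supply these exporters were measured beside them. For the counts of these lists, 8.22% of all named genes were called higher and 7.21% lower in macrophages than in the cDC mean. Of 16 genes of glutathione synthesis and conjugation, 6 were called higher in macrophages than in the cDC mean and 0 lower, with a median difference of 0.70 log2. Mgst1, a membrane-bound glutathione transferase, read 10.23 and 10.33 log2 in macrophages, 5.26 and 5.55 log2 in CD8+ cDC and 5.85 and 4.93 log2 in CD8- cDC, and was at least 27.9-fold higher in macrophages (adjusted p = 0.00207). The transferases Gsta4 (at least 11.0-fold, adjusted p = 0.00343) and Gstm1 (3.32 log2, adjusted p = 0.00094) and Gclm, the modifier subunit of the enzyme that starts glutathione synthesis (2.78 log2, adjusted p = 0.00388), were higher too. Of 11 genes of glucuronidation and sulphation, 2 were higher and 3 lower, with a median of -0.07 log2. The sulphotransferase Sult1a1 (1.41 log2, adjusted p = 0.0428) and Slc35b2, which brings the sulphate donor into the Golgi (1.12 log2, adjusted p = 0.0148), were higher. Ugt1a7c (at least 3.23-fold, adjusted p = 0.0231) and Ugt1a6a (at least 2.08-fold, adjusted p = 0.0194) were lower in macrophages; both belong to a locus whose genes share their last exons, so a probe may read more than 1 of them. Gusb, the lysosomal enzyme that removes glucuronic acid, was lower as well (-0.77 log2, adjusted p = 0.0318).

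Carriers of organic ions outside the Slco family followed no single direction. Of 18 measured, 3 were called higher and 1 lower in macrophages than in the cDC mean, where 8.22% and 7.21% of all named genes were. At background on all arrays were 9, and the median was 0.02 log2. The lysosomal peptide and histidine carrier Slc15a3 was higher by 3.14 log2 (adjusted p = 0.00268), the folate and haem carrier Slc46a1 by at least 4.18-fold (adjusted p = 0.0109) and Slc22a23 by 2.52 log2 (adjusted p = 0.00208). The lysosomal carrier Slc46a3 was lower (-1.38 log2, adjusted p = 0.00806).

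The cholesterol exporters Abca1 and Abcg1 were both higher in macrophages, Abca1 with all cDC arrays at background. Abca1 read 6.38 and 6.05 log2 in macrophages, 4.35 and 4.32 log2 in CD8+ cDC and 4.36 and 4.33 log2 in CD8- cDC. Every cDC reading was at background, which bounds the difference at 1.95-fold or more (log2 difference as measured 1.87, SE 0.11, adjusted p = 0.00246). Abcg1 read 9.92 and 10.89 log2 in macrophages, 8.19 and 8.14 log2 in CD8+ cDC and 7.12 and 7.42 log2 in CD8- cDC. It was well above background everywhere, and 2.69 log2 higher in macrophages than in the cDC mean (SE 0.29, adjusted p = 0.00835). The difference was 2.24 log2 against CD8+ cDC (adjusted p = 0.0237) and 3.13 log2 against CD8- cDC (adjusted p = 0.00958). Between the cDC the arrays did not overlap, but the difference of 0.89 log2 was not called (adjusted p = 0.422). Both calls against single cDC populations were lost without either CD8- cDC array (adjusted p from 0.0606 to 0.0648), and that against CD8+ cDC also without either CD8+ cDC array (0.117 and 0.119).

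The cholesterol genes measured beside them moved mostly the same way. Of 15 genes of cholesterol efflux and handling, 10 were higher and 1 was lower in macrophages than in the cDC mean, with a median of 0.98 log2. Over all named genes the shares were 8.22% higher and 7.21% lower. Apoc1 exceeded its cDC mean at least 57.6-fold (adjusted p = 0.00497), the lipoprotein receptor Lrp1 4.17 log2 higher (adjusted p = 0.00101), Apoe 3.85 log2 higher (adjusted p = 0.00714) and the cholesteryl ester hydrolase Nceh1 2.50 log2 higher (adjusted p = 0.0039). Sqle, an enzyme of cholesterol synthesis, was lower (-1.04 log2, adjusted p = 0.0167). Of 16 nuclear receptors and other regulators of ABC genes, 4 were higher and 1 was lower, with a median of 0.04 log2. Nr1h3, which encodes LXR alpha, read 13.22 and 13.53 log2 in macrophages, 5.63 and 9.06 log2 in CD8+ cDC and 8.64 and 7.31 log2 in CD8- cDC (difference 5.72 log2, adjusted p = 0.0319). Against CD8+ cDC the difference was called (adjusted p = 0.049 by limma), but not with the replicate block (0.0622). Against CD8- cDC it was not called (adjusted p = 0.062 by limma). The cDC arrays of Nr1h3 were spread in the direction of the macrophage markers, whose part in these readings was not tested. Pparg exceeded its cDC mean at least 35.5-fold (adjusted p = 0.00716) and Rxra, the partner of both receptors, at least 3.58-fold higher (adjusted p = 0.00551). Srebf2, which drives cholesterol synthesis genes, was lower (-1.11 log2, adjusted p = 0.0264).

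Among the other lipid transporters Abcb4 showed the widest gap. Abcb4, the phosphatidylcholine floppase best known from the bile canaliculus of the liver, read 11.39 and 11.45 log2 in macrophages, 5.45 and 5.98 log2 in CD8+ cDC and 6.88 and 5.69 log2 in CD8- cDC. All 6 readings were above background, and the macrophage arrays exceeded the highest cDC array by more than the whole spread within the cDC. The gene was 5.42 log2 higher than in the cDC mean (SE 0.37, adjusted p = 0.00304), 5.70 log2 higher than in CD8+ cDC (adjusted p = 0.00464) and 5.13 log2 higher than in CD8- cDC (adjusted p = 0.00542), and each of these calls held in all 6 fits with 1 array left out. Against CD8- cDC the size leaned on single arrays: the fold was 35.1, against 23.2 without CD8- cDC replicate 2 and 53.0 without replicate 1. In each cDC population the brighter array for Abcb4 was the one with more macrophage marker signal. The part of macrophage RNA in these readings was not tested. Abcb4 lies next to Abcb1b, and Abcb1b next to Abcb1a, on chromosome 5 in the RefSeq gene table. The 3 neighbours differed: Abcb4 was higher in macrophages, Abcb1b was lower, and Abcb1a was at background on all arrays.

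Abca9, a member of a cluster of Abca genes on chromosome 11, read without overlap in the cDC populations, a difference not called. It read 7.97 and 8.14 log2 in macrophages, 4.52 and 4.57 log2 in CD8+ cDC and 5.99 and 7.22 log2 in CD8- cDC. The 2 CD8+ cDC arrays were at background and both CD8- cDC arrays above it. In macrophages it was at least 4.36-fold higher than in the cDC mean (adjusted p = 0.0167) and at least 6.98-fold higher than in CD8+ cDC (adjusted p = 0.0123), while the difference of 1.45 log2 from CD8- cDC was not called (adjusted p = 0.117). Against CD8- cDC the CD8+ cDC arrays, both at background, were lower by at least 2.56-fold, not called (adjusted p = 0.117), though this difference was called lower with a variance trend and with a filter on dim probes. The call against both cDC was lost without either CD8+ cDC array or either macrophage array (adjusted p from 0.061 to 0.103), and that against CD8+ cDC without either CD8+ cDC array or macrophage replicate 2 (0.0676 to 0.0783). A second probe of Abca9 stayed within 4.42 to 5.37 log2 and was not called. Of the 4 probes of Abca9, 2 were above background on any array and 1 was called in any comparison. The genes around it in the cluster, Abca8b, Abca8a, Abca6 and Abca5, were at background on all arrays.

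Abca7, a phospholipid transporter linked to phagocytosis, was lower in macrophages. It read 9.23 and 9.25 log2 in macrophages, 9.86 and 10.58 log2 in CD8+ cDC and 10.54 and 10.81 log2 in CD8- cDC, with no overlap between macrophages and cDC. The difference was -1.21 log2 from the cDC mean (SE 0.22, adjusted p = 0.0339) and -1.44 log2 from CD8- cDC (adjusted p = 0.0354), and that from CD8+ cDC, -0.98 log2, was not called (adjusted p = 0.102). A second probe of Abca7 was called lower in the same comparisons (-0.75 and -0.96 log2). Both calls of the first probe were lost without either macrophage array or either CD8- cDC array, with adjusted p from 0.0822 to 0.169. Abca3, the exporter that loads surfactant lipid into lamellar bodies in the lung, had 11.52 and 11.32 log2 in macrophages, 12.06 and 12.12 log2 in CD8+ cDC and 11.56 and 11.90 log2 in CD8- cDC. The difference between macrophages and the cDC mean was -0.49 log2, not called (adjusted p = 0.091). Abca2, a transporter of late endosomes and lysosomes, ranged over 6.34 to 6.56 log2 in macrophages, 5.79 to 6.31 log2 in CD8+ cDC and 6.42 to 6.94 log2 in CD8- cDC and was not called. Abca17 was near background, with 4.98 and 5.37 log2 in macrophages, 5.52 on both CD8+ cDC arrays and 4.83 and 4.75 log2 in CD8- cDC.

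Peroxisomal half-transporters of the Abcd group, which bring fatty acyl-CoA into peroxisomes, were higher in macrophages. Abcd2, which handles very long chain fatty acids, read 6.61 and 6.28 log2 in macrophages, 5.09 and 4.79 log2 in CD8+ cDC and 4.60 and 4.55 log2 in CD8- cDC. All cDC readings were at background and the gene was at least 2.28-fold higher in macrophages (adjusted p = 0.00472). Its second probe, with all cDC arrays at background too, was higher by at least 1.53-fold (adjusted p = 0.0136). Abcd3, which takes up branched-chain and bile acid precursors, read 9.41 and 9.86 log2 in macrophages, 7.96 and 8.29 log2 in CD8+ cDC and 8.11 and 8.16 log2 in CD8- cDC. It was 1.51 log2 higher in macrophages than in the cDC mean (SE 0.17, adjusted p = 0.0089). Of its 4 probes, 1 was called, and that with the largest range was 1.38 log2 higher and not called (adjusted p = 0.0647). The remaining probes of Abcd3 were 0.54 and 0.37 log2 higher, neither called (adjusted p = 0.41 and 0.29 by limma). Abcd4, a lysosomal member needed for vitamin B12 release, had 5.90 and 5.94 log2 in macrophages, 5.34 and 5.58 log2 in CD8+ cDC and 5.27 and 5.90 log2 in CD8- cDC and was not called (adjusted p = 0.365). Of 13 peroxisome genes measured beside them, 1 was higher (the import receptor Pex5, 1.03 log2, adjusted p = 0.0228) and 1 lower (the import receptor Pex7, -0.79 log2, adjusted p = 0.00658). Their median was 0.01 log2. Over all named genes 8.22% were higher and 7.21% lower, so the counts were near those shares.

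Among half-transporters of haem and mitochondria, Abcb6 was the one called. Abcb6, a porphyrin transporter, read 6.74 and 7.42 log2 in macrophages, 5.15 and 5.65 log2 in CD8+ cDC and 5.14 and 5.13 log2 in CD8- cDC. It was at least 3.31-fold higher in macrophages than in the cDC mean (adjusted p = 0.0144), a call lost without macrophage replicate 2 (adjusted p = 0.0524) or either CD8- cDC array (0.0566 and 0.0575). Abcb6 is also known from red cell precursors, and 2 of 8 erythroid markers were higher in macrophages; their part in the reading of Abcb6 was not tested. Abcb8, of the mitochondrial inner membrane, had 6.38 and 6.92 log2 in macrophages, 6.62 and 7.42 log2 in CD8+ cDC and 6.02 and 6.29 log2 in CD8- cDC and was not called with any of its 4 probes. Abcb10, which supports haem synthesis in erythroid mitochondria, was at background on all arrays.

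Genes of haem handling outside the family were measured beside them. The median over 18 genes of haem synthesis and export was 0.25 log2. Of the 18, 3 were called higher and 1 lower in macrophages than in the cDC mean, where 8.22% and 7.21% of all named genes were. The 3 were haem oxygenase Hmox1, also 1 of the macrophage markers (5.81 log2, adjusted p = 0.0159) and the biliverdin reductases Blvrb (4.46 log2, adjusted p = 0.00741) and Blvra (2.23 log2, adjusted p = 0.00387). Slc25a38, the mitochondrial glycine carrier of haem synthesis, was lower (-0.81 log2, adjusted p = 0.0269).

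Of the peptide transporters, Abcb9 was called higher in macrophages than in the cDC mean, and Tap1 and Tap2 were called lower than in CD8+ cDC. Abcb9 (TAPL), which moves peptides into lysosomes, read 6.12 and 5.90 log2 in macrophages, 5.49 and 5.01 log2 in CD8+ cDC and 4.85 and 4.97 log2 in CD8- cDC. It was at least 1.62-fold higher in macrophages than in the cDC mean (adjusted p = 0.0308) and at least 1.69-fold higher than in CD8- cDC (adjusted p = 0.0325). A second probe was higher by at least 1.54-fold, not called (adjusted p = 0.0765), and both calls of the first were lost without either macrophage array or either CD8- cDC array (adjusted p from 0.0872 to 0.153). Tap1 and Tap2, the ABC genes for the pump that feeds peptides to MHC class I, carry other symbols and are not among the 62. Tap1 read 9.27 and 9.67 log2 in macrophages, 10.37 and 10.64 log2 in CD8+ cDC and 9.46 and 9.71 log2 in CD8- cDC. It was lower in macrophages than in CD8+ cDC (-1.03 log2, adjusted p = 0.0408), as was Tap2 (-0.76 log2, adjusted p = 0.0411), and neither was called against the cDC mean (adjusted p = 0.112 for Tap1 and 0.139 for Tap2), against CD8- cDC or between the cDC. With the replicate block Tap1 was also called lower in macrophages than in the cDC mean (adjusted p = 0.0239) and higher in CD8+ than in CD8- cDC (adjusted p = 0.0449). Over all named genes, 7.21% were lower and 8.22% higher in macrophages than in the cDC mean. Of 12 partners of TAP in peptide loading, 4 were lower and 0 higher in that comparison, with a median of -0.12 log2. These were tapasin Tapbp (-1.60 log2, adjusted p = 0.0184), the immunoproteasome subunits Psmb8 (-1.15 log2, adjusted p = 0.00476) and Psmb9 (-0.86 log2, adjusted p = 0.0183) and Tapbpl (-0.68 log2, adjusted p = 0.0179).

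The drug pump gene Abcb1b, 1 of a pair that encodes P-glycoprotein in rodents, was lower in macrophages than in both cDC populations. Its readings were 5.81 and 5.88 log2 in macrophages, 7.32 and 7.15 log2 in CD8+ cDC and 7.71 and 8.44 log2 in CD8- cDC, without overlap. The difference was -1.81 log2 from the cDC mean (SE 0.22, adjusted p = 0.0111), -1.39 log2 from CD8+ cDC (adjusted p = 0.0401) and -2.23 log2 from CD8- cDC (adjusted p = 0.011). The call against both cDC was lost without macrophage replicate 1 (adjusted p = 0.0561) or replicate 2 (0.0689). That against CD8+ cDC was lost without either array of either population (adjusted p from 0.131 to 0.18), and that against CD8- cDC without macrophage replicate 2 (0.0572). Its partner Abcb1a, the drug and porphyrin pump Abcg2 and Abcg3 were at background on all arrays, as were Abcg4, Abcg5 and Abcg8, which left Abcg1 as the one Abcg gene above it.

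Slco3a1 was the one gene of the family called between the cDC populations. This carrier, OATP3A1, takes up prostaglandins and thyroid hormone among other substrates. It read 9.91 and 9.74 log2 in CD8+ cDC, against 6.38 and 6.50 log2 in CD8- cDC, and 6.15 and 5.85 log2 in macrophages. The CD8+ cDC arrays stood apart from the other 4, which lay between 5.85 and 6.50 log2. Slco3a1 was 3.38 log2 higher in CD8+ than in CD8- cDC (SE 0.14, adjusted p = 0.012, and 0.0295 with the replicate block). Of the 62 genes, 1 (1.61%) was thus higher in CD8+ cDC, where 1.29% of all named genes were, and 0 were lower, where 0.756% of all named genes were. In either direction 2.04% of all named genes were called. By unadjusted p, 12 of the 62 genes (19.4%) were under 0.05 in either direction in this limma comparison, where 14.7% of all named genes were. Without any 1 of the 4 cDC arrays the call was lost, with adjusted p from 0.0664 to 0.125, as it was for all other genes of the table in those fits. In macrophages Slco3a1 was lower than in CD8+ cDC (-3.82 log2, adjusted p = 0.00171), and the difference of -0.44 log2 from CD8- cDC was not called (adjusted p = 0.161). Its other probes above background read 8.81 and 7.89 log2 and 7.41 and 7.27 log2 in CD8+ cDC, against 6.27 and 5.44 log2 and 4.45 and 4.45 log2 in CD8- cDC. Of these, the second was called higher in CD8+ cDC, by at least 4.24-fold with both CD8- cDC arrays at background (adjusted p = 0.0169), and the first differed by 2.50 log2, not called (adjusted p = 0.0781).

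A further 2 Slco genes lay above background. Slco5a1, a member without an established substrate, read 4.82 and 4.68 log2 in macrophages, both at background, 5.63 on both CD8+ cDC arrays and 6.62 and 6.10 log2 in CD8- cDC. It was at least 1.67-fold lower in macrophages than in the cDC mean (adjusted p = 0.0134) and at least 2.15-fold lower than in CD8- cDC (adjusted p = 0.0116), and against CD8+ cDC it was at least 1.30-fold lower, not called (adjusted p = 0.0603, and 0.0486 with the replicate block). Of the 2 probes of Slco5a1, 1 was above background on any array. The call against both cDC was lost without either macrophage array or either CD8+ cDC array (adjusted p from 0.0519 to 0.0866), and that against CD8- cDC without macrophage replicate 2 (0.0635). Slco4a1, a carrier of thyroid hormone, gave no stable level: 6.25 and 4.53 log2 in macrophages, 8.53 and 6.15 log2 in CD8+ cDC and 5.46 and 6.12 log2 in CD8- cDC. Its replicates lay far apart in macrophages and CD8+ cDC, macrophages overlapped each cDC population, and no comparison was called. The cDC populations did not overlap, though by a narrow margin (6.15 against 6.12 log2). The 9 other Slco genes, among them all measured Slco1 genes, a group of liver and brain carriers, were at background on all arrays.

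The Abce and Abcf genes are ABC proteins that do not transport: Abce1 splits ribosomes after termination and the Abcf proteins act on translation. Abce1 read 8.27 and 7.84 log2 in macrophages, 8.35 and 7.83 log2 in CD8+ cDC and 8.19 and 7.73 log2 in CD8- cDC, which differ less between populations than between replicates (0.03 log2 between macrophages and both cDC, adjusted p = 0.974). Abcf1 had 10.33 and 10.70 log2 in macrophages, 10.39 and 10.87 log2 in CD8+ cDC and 10.28 and 10.27 log2 in CD8- cDC. Abcf2 and Abcf3 also lay above background on all arrays, at 9.68 to 9.99 and 9.32 to 9.59 log2 in macrophages, 10.07 to 10.35 and 8.93 to 9.12 log2 in CD8+ cDC and 9.96 to 10.06 and 9.11 to 9.13 log2 in CD8- cDC. None of the 4 was called in any comparison with the probe that stood for it, and 1 of 3 other probes of Abcf2 was lower in macrophages (-0.65 log2, adjusted p = 0.0286).

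Set against each cDC population on its own, the family split by gene. Against CD8+ cDC, 10 of the 62 genes were higher in macrophages and 2 were lower, shares of 16.1% and 3.23% where 6.55% and 5.25% of all named genes were. Against CD8- cDC, 12 were higher and 3 lower, shares of 19.4% and 4.84% where 7.14% and 5.93% of all named genes were. The comparisons share the macrophage arrays. How many of all named genes were called in both comparisons, or in 1 alone, was not counted, so the counts that follow have no share beside them. Called higher against both were 9 genes: Abca1, Abcb4, Abcb6, Abcc3, Abcc5, Abcd2, Abcd3, Abcg1 and Slco2a1. Abca9 was called against CD8+ cDC alone, and Abcb9, Abcc10 and Slco2b1 against CD8- cDC alone. Abcb1b was lower against both, Slco3a1 against CD8+ cDC alone, and Abca7 and Slco5a1 against CD8- cDC alone. Of the differences between the cDC themselves only that of Slco3a1 was called, so a call against 1 cDC population alone does not show that the cDC differ. Leaving out single arrays ended 7 of the 10 higher calls against CD8+ cDC and 9 of the 12 against CD8- cDC in at least 1 fit; Abca1 and Abcb4 kept both calls in all 6 fits.

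**Figure D3:**
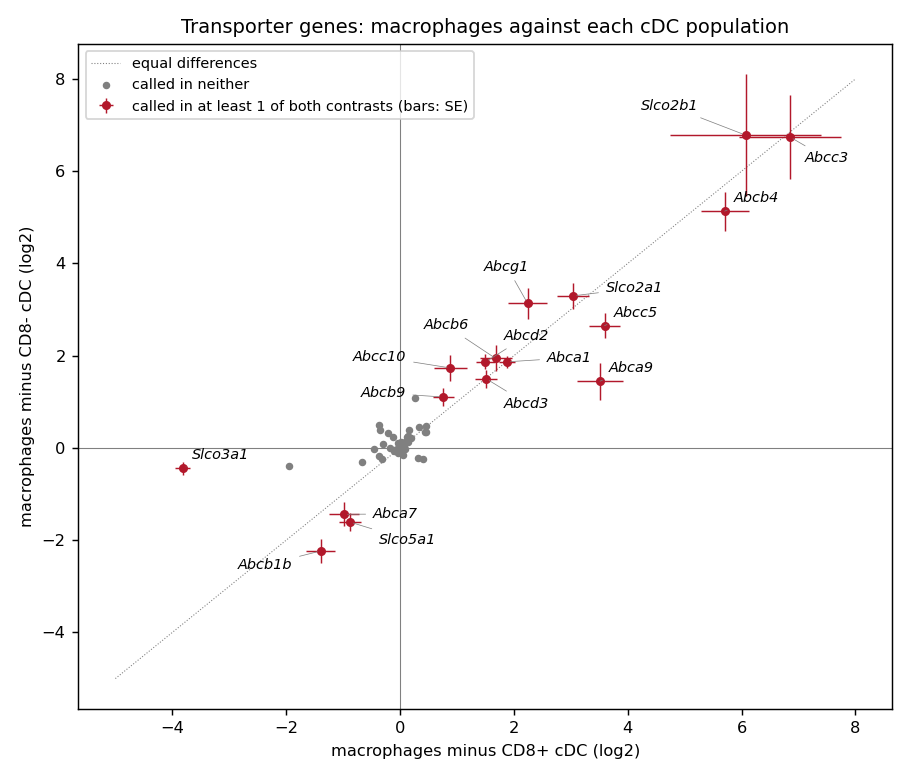
Difference of the 62 transporter genes between macrophages and CD8+ cDC (horizontal axis, log2) and between macrophages and CD8- cDC (vertical axis, log2), as measured and without counting dim arrays at the background level. Red points with bars of 1 SE were called in at least 1 of the comparisons and grey points in neither; Slco3a1 lies far to the left at -3.82 and -0.44 log2, and Abca9 below the dotted line of equal differences at 3.51 and 1.45 log2.

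Separate probes of a gene bore on how firmly its difference stood. Over 1 probe was present for 37 of the 62 genes, and over 1 probe above background for 14. In 0 of the 62 genes were probes called in both directions. That needs over 1 called probe in a comparison, which only Abca7, Abcc5, Abcd2, Slco2a1 and Slco3a1 had. Both probes above background were called higher in macrophages for Abcc5 and Abcd2, all 3 for Slco2a1, and both were called lower for Abca7, in comparison with the cDC mean. In that comparison 1 of 4 probes above background was called higher for Abcd3 and 1 of 4 lower for Abcf2. Of 2 such probes, 1 was called higher for Abca9 and 1 for Abcb9. None was called for Abca3, Abcb8, Abcd4, Abcf1 or Abcf3, each with over 1 probe above background. In the same comparison all 3 probes of Slco3a1 above background were lower in macrophages, but 0 of them were called against CD8- cDC alone. For 1 of the 3 the macrophage and CD8- cDC arrays were all at background. For the second probes of Abcc5, Abcd2 and Slco2a1 all cDC arrays were at background, so the sizes of the difference cannot be set against each other.

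**Figure D4:**
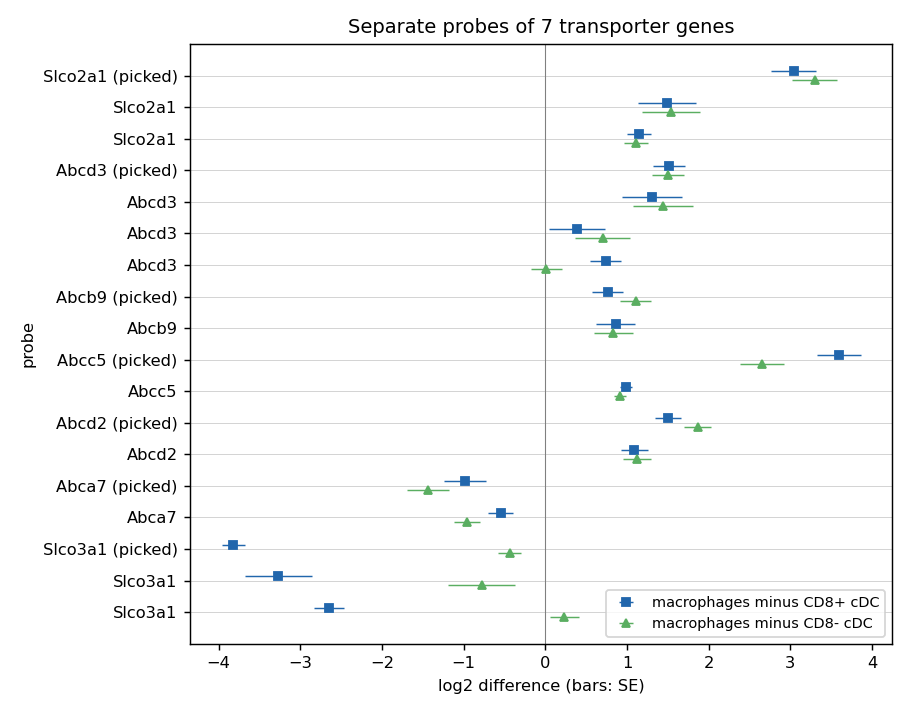
Log2 difference (horizontal axis, bars of 1 SE) of each probe above background on at least 1 array for 7 transporter genes; blue squares are macrophages minus CD8+ cDC and green triangles macrophages minus CD8- cDC, and the probe that stood for the gene is marked as picked. Differences are drawn as measured, without counting dim arrays at the background level. The 3 probes of Slco3a1 lie far to the left against CD8+ cDC and between -0.78 and 0.23 log2 against CD8- cDC, and those of Slco2a1 lie to the right in both comparisons.

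By group, the Abca genes had 6 of 16 members above background in a population, Abcb 5 of 9, Abcc 4 of 10, Abcd 3 of 3, Abce 1 of 1, Abcf 3 of 3, Abcg 1 of 6 and Slco 5 of 14. Called higher in macrophages than in the cDC mean were 2 Abca, 3 Abcb, 3 Abcc, 2 Abcd, 1 Abcg and 2 Slco genes, and lower were 1 Abca, 1 Abcb and 2 Slco genes. The 32 genes at background on all arrays read between 4.31 and 5.24 log2. Among them were Abcb11 and Abcc2, the bile salt and conjugate pumps of the liver canaliculus, Abcc6, Abcc8 and Abcc9, and the retinal transporter Abca4. A probe at background gives only an upper bound on the signal, and no fold is given for these genes.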

How the data were processed

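The values were used as the authors deposited them, in log2. The base was inferred from their range of 4.249 to 14.53, since the labels do not state it. The 6 columns had nearly the same distribution (largest gap between sorted columns 0.0349 log2) and were taken to be quantile-normalized by the authors, though no label says so. BeadStudio and limma appear, with no role stated, in the submitters' processing notes. A table of non-normalized signals was not used, because the names of its 12 value columns match none of the labels.

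Gene names came from the deposited probe annotation, which gives 1 symbol to 34885 probes, several to 18 and none to 10378. All 62 genes were found by ID in RefSeq's gene table (GRCm38.p6), with 0 symbols changed. All 45281 probes were fitted on the 6 arrays with lmFit and eBayes (limma 3.58.1, R 4.3.3), with 1 coefficient per population. There were 3 residual and 1.86 prior degrees of freedom. Benjamini-Hochberg adjustment ran over all probes. For a called gene with arrays of the dimmer side at or under background, those arrays were set to 5.25 log2 and the fold is a minimum. The background level rests on 1592 probes of genes taken to be silent in spleen. The steps were tested on simulated data, and no 2 arrays held the same values.

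The labels number the replicates 1 and 2 without saying what a number shares. Over 15952 probes, the differences between replicates correlated at 0.421 (macrophages with CD8+ cDC), 0.281 (macrophages with CD8- cDC) and 0.287 (CD8+ with CD8- cDC), so a shared number may mark paired arrays; a block for it was kept to an alternative fit. Correlations between replicates were 0.963 for macrophages, 0.969 for CD8+ cDC and 0.973 for CD8- cDC. The number of arrays limits the precision.

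Genes were named by rule: in each comparison up to 10 highest and 10 lowest called genes, the 2 brightest genes of each group and a set of well-known members, with up to 4 called genes of each further list. Secondary probes and the genes around Abca9 were added after their values were seen. The 62 genes, the lists and the tests were chosen with earlier results of these data known. Of the listed genes, those without a named probe were not analysed here. Alternatives were a replicate block, a variance trend, a filter on probes above background on 2 arrays, centring of arrays, averaging of probes, the probe with the largest range, leaving out each array, and, added after the data were seen, leaving out the 2 cDC arrays of higher macrophage marker signal.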

Additional observations from a re-analysis of the deposited data

How the results depend on the processing

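Counts of called genes moved mainly when an array was left out. In each fit without 1 array, fewer of all named genes were called too, in every comparison. Leaving out each array in turn gave 7 to 10 genes higher (13 with all arrays) and 1 to 3 lower (4) in macrophages than in the cDC mean, 4 to 9 higher (10) and 1 to 3 lower (2) than in CD8+ cDC, and 4 to 10 higher (12) and 0 to 3 lower (3) than in CD8- cDC. Between CD8+ and CD8- cDC it gave 0 to 1 higher (1) and 0 lower (0). The low of 7 came without macrophage replicate 2, which ended the calls of Abca9, Abcb6, Abcb9, Abcc10, Abcc3 and Slco2b1; over all named genes that fit called 1373 in place of 2940. The low of 4 against CD8+ cDC came without CD8+ cDC replicate 1, that of 4 against CD8- cDC without CD8- cDC replicate 2, and that of 0 lower against CD8- cDC without macrophage replicate 2. Leaving out CD8+ cDC replicate 2 and CD8- cDC replicate 1 together left 0 calls in each of the 4 comparisons, among the 62 genes and among all named genes, with 1 residual degree of freedom; at an unadjusted p under 0.05 there were 18, 18, 16 and 8 of the 62 genes (29.0%, 29.0%, 25.8% and 12.9%, where 23.6%, 20.2%, 20.9% and 11.5% of all named genes were), and every called gene kept its sign. With a variance trend, and with the filter on dim probes, 4 genes were lower in macrophages than in CD8+ cDC (2 in the fit as reported) and 1, Abca9, was lower in CD8+ than in CD8- cDC (0 as reported). Of the 45 called differences, 0 changed sign under any alternative. The compared arrays did not overlap in any of the 45, so leaving out arrays could not change a sign. Nor could the block, the variance trend or the filter, which leave the differences themselves as they are. With the replicate block 44 remained called: Slco2b1 against CD8- cDC was lost (adjusted p = 0.0685), Abcc10 and Slco5a1 against CD8+ cDC and Abcc4 against CD8- cDC were gained, and no other call of the family changed. The block gave 13 and 4, 11 and 3, 12 and 3, and 1 and 0 higher and lower genes in the 4 comparisons. The probe with the largest range ended the 3 calls of Abcd3. A background level of 4.91 log2 in place of 5.25 log2 raises the minimum fold of Abca1 to 2.47 in place of 1.95. Leaving out 1 cDC array moved the folds of Abcc3, Slco2b1 and Abcb4 by over 1.5 times. Signals near background give bounds only, and 2 arrays a population leave the spread poorly known.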
